A study of Mus musculus with 192 samples.

Results

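The genes described here are the 5 class III receptor tyrosine kinases Kit, Flt3, Csf1r, Pdgfra and Pdgfrb, which are 5 of the 49466 genes in the count table and were taken by symbol. Their level was followed in single cells labelled colony-forming unit-erythroid (CFU-E) and burst-forming unit-erythroid (BFU-E), with the question of which receptor each cell carried and whether the receptors occurred in separate cells. Both groups came from fetal liver of C57/Bl6J mice at embryonic day 14.5; BFU-E are the earlier and CFU-E the later progenitors of the red cell lineage. Lineage-bearing cells had first been removed with antibodies to CD41, CD16/32, Sca-1, Ter119, CD11b, Ly-6G, CD45R and CD3e, and what remained was sorted by CD24, CD71, CD117 and a viability dye into plate wells, a single cell to each. CD117 is the protein product of Kit, so Kit is itself a sort antigen, and a difference in it between the groups cannot be told apart from the choice of cells in the sort. The sources used here state neither the sort gates nor how many animals were used.

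These receptors share an extracellular part of immunoglobulin-like domains, a single membrane span and an intracellular kinase that is split by an insert. Binding of a dimeric ligand pairs 2 receptor chains, which phosphorylate each other and recruit adaptors that feed the RAS, PI3 kinase and SRC-family pathways. KIT, the receptor of stem cell factor, sustains blood stem cells, mast cells and early erythroid progenitors; FLT3 acts in multipotent, lymphoid and dendritic progenitors; CSF1R is the receptor of macrophage colony-stimulating factor and interleukin-34; and the platelet-derived growth factor receptors PDGFRA and PDGFRB are best known from mesenchymal cells.

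Depth ran from 5825 through a median of 999396 up to 2992101 counts in 95 CFU-E cells, and from 6473 through 1099619.5 up to 3864040 in 96 BFU-E cells. After removal of shallow cells (under 100000 counts or 2000 genes), 89 CFU-E and 92 BFU-E cells remained; each was thinned at random to 100000 counts, so that 1 count in a cell equals 10 counts per 1000000 (CPM). Each group was 1 plate read in 1 lane, and no label ties a cell to an animal, so each group counts as 1 sample and no test or p-value is given. Intervals are 95% and cover counting error only, since amplified reads without molecular tags are not independent molecules.

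Markers put the BFU-E cells, unlike most CFU-E cells, in classes that the labels do not name. With the genes of all pathway lists left out, the 92 BFU-E cells fell into 2 clusters (mean silhouette 0.312). The first, of 38 cells, carried 8 of 13 granulocyte-monocyte markers above the plate mean and 0 of 12 erythroid markers, with Mpo (myeloperoxidase) at 4015 CPM; it is called granulocyte-monocyte-like here, although the genes that led it, Tifab and Ncf1 among them, included Ighm, an immunoglobulin gene, and 5 of 13 lymphoid and 5 of 9 stem and multipotent markers were also above the plate mean. The second, of 54 cells, carried 12 of 12 erythroid markers above the plate mean and is called erythroid-like. In both clusters a marker was counted as above the plate mean only if it also reached 5 CPM in that cluster. The summed erythroid markers reached 12707 CPM in CFU-E cells, 344 CPM in granulocyte-monocyte-like BFU-E cells and 2659 CPM in erythroid-like BFU-E cells. On the CFU-E plate, 3 cells carried 9 lymphoid markers each and no count of Gata1 or Klf1, the central erythroid transcription factors. They were kept, and values that rest on them are also given without them. In the same order of classes, the summed granulocyte-monocyte markers were at 1.24, 4792 and 174 CPM, stem and multipotent markers at 87.98, 1944 and 440.2 CPM, megakaryocyte markers at 24.8, 156 and 436 CPM and hepatocyte markers at 163, 185 and 217 CPM.

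Kit lies on mouse chromosome 5 of GRCm38 at 75574916 to 75656722 on the plus strand (ENSMUSG00000005672), and Pdgfra (ENSMUSG00000029231) ends 376700 bp before it, at 75152292 to 75198215 on the same strand. Flt3 is on the minus strand of chromosome 5 at 147330741 to 147400489 (ENSMUSG00000042817). The bases just before the starts of Kit and Flt3 are shown because Kit was the receptor carried most widely and Flt3 differed most in how many cells of the BFU-E classes carried it. They are the part of RefSeq's promoter windows (GRCm38.p6) that lies before the annotated gene start, 179 bases at chr5:75574737-75574915 for Kit and 250 bases at chr5:147400490-147400739 for Flt3, each read 5′ to 3′ on the gene's own strand. Capitals mark the GAGGAA core bound by ETS factors in Kit and the E-box CANNTG in Flt3.

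Kit: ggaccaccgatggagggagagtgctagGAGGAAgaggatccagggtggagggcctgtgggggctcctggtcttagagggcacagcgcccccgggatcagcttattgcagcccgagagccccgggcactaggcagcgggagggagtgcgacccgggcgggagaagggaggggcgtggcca
Flt3: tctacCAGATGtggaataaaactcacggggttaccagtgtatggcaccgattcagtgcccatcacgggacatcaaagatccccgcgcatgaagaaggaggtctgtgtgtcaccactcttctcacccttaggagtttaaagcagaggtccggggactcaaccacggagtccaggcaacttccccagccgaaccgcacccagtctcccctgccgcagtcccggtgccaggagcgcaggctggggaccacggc

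The Kit window held 1 GAGGAA core, which 17.1% of 32851 windows of that length also held when both strands were searched. It held no AGATAA (the GATA motif, in 7.68% of windows) and no E-box (in 55.3%). The Flt3 window held 1 E-box (in 66.2% of 32851 windows of its length) and no AGATAA (9.99%) or GAGGAA (23.3%). The searched motifs do not overlap each other in either window, and a match of letters is not evidence of a bound factor.

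Kit was the receptor carried most widely, and its level was lower in CFU-E cells. In single cells it was at 0, 60 and 280 CPM (lowest, median and highest) in CFU-E cells, against 10, 570 and 3340 CPM in BFU-E cells. The groups overlapped: 23 of 92 BFU-E cells lay at or under the highest CFU-E cell, and 0 of 89 CFU-E cells lay above the BFU-E median. Over summed cells Kit stood at 73.7 CPM (68.2 to 79.6) in CFU-E cells and 608 CPM (592 to 624) in BFU-E cells, which is 8.25-fold lower in CFU-E (7.61 to 8.96). Against erythroid-like BFU-E cells alone, at 693 CPM (671 to 716), it was 9.40-fold lower (8.65 to 10.2). On the log2(CPM + 1) scale the difference from all BFU-E cells was −3.03 with library-size scaling and −2.401 with median-of-ratios factors; the median of all 9440 measured genes was −0.57 and 0.03 under the same scalings. Leaving out the 3 CFU-E cells with lymphoid markers gave 73.4 CPM.

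A count of Kit was found in 69 of 89 CFU-E cells (77.5%, interval 67.4 to 85.7) and in 92 of 92 BFU-E cells (100%, from 96.1). At full depth it was found in 85 of 89 CFU-E cells. So the CFU-E cells without a thinned count were mostly cells with few Kit reads: at 10 or more thinned counts the share was 33.7% in CFU-E cells and 94.6% in BFU-E cells. Within the BFU-E plate the classes differed less in Kit, at 487 CPM (465 to 510) in granulocyte-monocyte-like and 693 CPM in erythroid-like cells, a ratio of 0.703 (0.665 to 0.744). Single cells ranged over 10, 515 and 1170 CPM in granulocyte-monocyte-like cells and over 10, 635 and 3340 CPM in erythroid-like cells, and the ranges overlapped almost wholly. The highest erythroid-like cell gave 8.92% of that class's Kit counts. Summed markers of mast cells, which carry much Kit, were at 1.69 CPM in CFU-E, 169 CPM in granulocyte-monocyte-like and 34.8 CPM in erythroid-like cells, with 6, 4 and 5 of 8 at 0; in the BFU-E classes they came mainly from Cpa3 and Hdc, and in CFU-E cells Cpa3 was at 0. Their part in the Kit level was not tested.

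**Figure D1:**
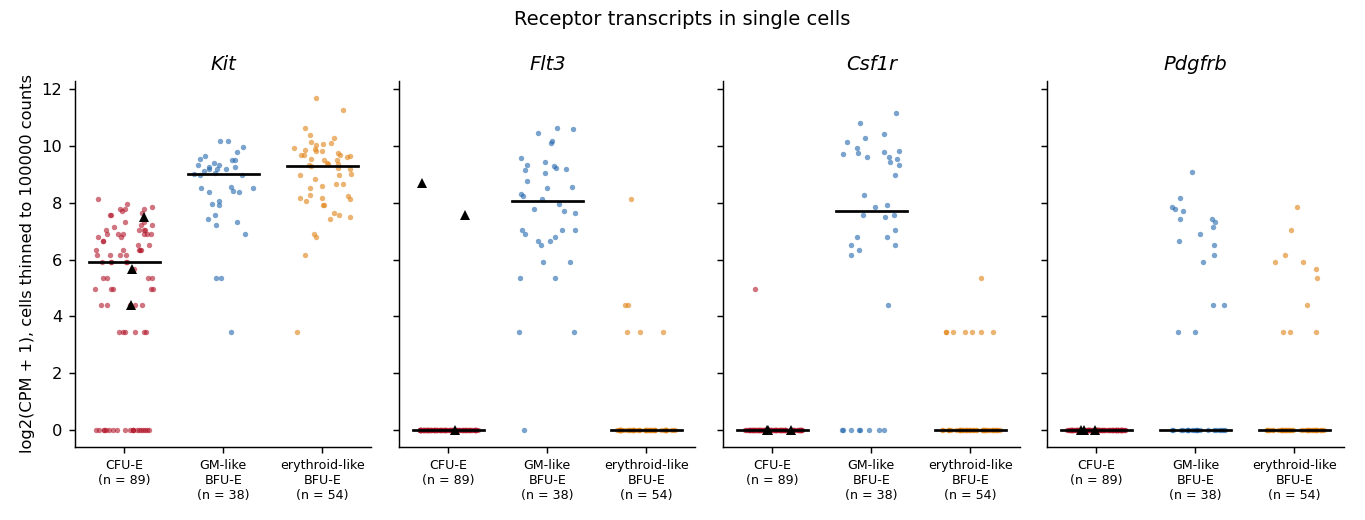
Per-cell levels of the 4 receptors with thinned counts, as log2(CPM + 1) after thinning every cell to 100000 counts, in CFU-E cells and both classes of BFU-E cells; each point is 1 cell, bars are medians and black triangles are the 3 CFU-E cells with lymphoid markers. Kit is present in all 3 classes and lower in CFU-E, while Flt3 and Csf1r stand high in the granulocyte-monocyte-like class, with Csf1r at 0 in 8 of its 38 cells.

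Flt3 was carried mainly by the granulocyte-monocyte-like cells, and on the CFU-E plate by cells with lymphoid markers. It was at 0, 265 and 1600 CPM (lowest, median and highest) in granulocyte-monocyte-like cells, against 0, 0 and 280 CPM in erythroid-like cells. Over summed cells that was 419 CPM (399 to 441) and 6.48 CPM (4.51 to 9.01), a ratio of 64.7 (46.3 to 93.3), with a count in 37 of 38 and 6 of 54 cells. The erythroid-like value rested on 1 cell, which held 80% of the class's Flt3 counts, carried Mpo at 5310 CPM and was placed outside the class by 3 other cluster settings. Without it and 2 other cells that moved under some settings, Flt3 was at 1.18 CPM (0.432 to 2.56) in 51 erythroid-like cells. Lymphoid markers also differed between the classes: 7 of 13 had a count in granulocyte-monocyte-like and 4 of 13 in erythroid-like cells. Their sum was at 0, 95 and 1700 CPM per cell against 0, 0 and 180 CPM (lowest, median and highest), led by Cd79b. Summed over cells they were at 185 and 20.2 CPM, beside 90.9 CPM in CFU-E cells, and their part was not tested.

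In CFU-E cells all 60 thinned counts of Flt3 came from 2 of the 3 cells with lymphoid markers, at 190 and 410 CPM. Flt3 was therefore 26.3-fold lower in CFU-E cells than in BFU-E cells as labelled (6.74 CPM, 5.14 to 8.68, against 177 CPM, 169 to 186). But once the 3 cells were left out no thinned count remained. With 3 counts set as the limit for the whole group, the level was then at least 508-fold lower. Set against erythroid-like BFU-E cells, the labelled CFU-E cells gave a ratio of 1.04 (0.674 to 1.63), and that likeness came from 2 cells on one side and mainly from 1 on the other. Flt3 in 0 of 86 CFU-E cells allows a thinned count in up to 3.49% of them (3 cells). At full depth it had 2 reads in 1 of the 86.

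Csf1r (ENSMUSG00000024621) lies on the plus strand of chromosome 18 at 61100598 to 61132149, 15536 bp after the end of Pdgfrb (ENSMUSG00000024620), at 61045150 to 61085061. Over summed cells Csf1r was the highest family member per length in the granulocyte-monocyte-like class, and it was close to absent elsewhere. It was at 0, 210 and 2300 CPM in granulocyte-monocyte-like cells, against 0, 0 and 40 CPM in erythroid-like cells. Over summed cells it stood at 488 CPM (466 to 511) and 2.04 CPM (1.02 to 3.64), a ratio of 239.8 (134 to 481), with a count in 30 of 38 and 8 of 54 cells, and 29 of the 38 lay above the highest erythroid-like cell. In CFU-E cells 1 of 89 carried it, with 3 counts in a cell that also had 16 counts of Gata1 and 44 of Klf1; its 0.337 CPM (0.0695 to 0.985) against 203 CPM (194 to 212) in BFU-E cells is a ratio of 0.00166 (0.000342 to 0.00486). Csf1r shares 873 exonic bases with Hmgxb3, a gene on the other strand, and since the kit marks no strand, reads from the shared bases cannot be told apart. Hmgxb3 differed little, at 27.9 CPM in CFU-E cells and 35 CPM in BFU-E cells and, within that plate, at 36.3 CPM in granulocyte-monocyte-like and 34.1 CPM in erythroid-like cells. Macrophage markers also differed between the classes, at 0, 115 and 1650 CPM summed per granulocyte-monocyte-like cell against 0, 0 and 250 CPM per erythroid-like cell. In CFU-E cells they summed to 2.47 CPM. Lyz2 gave 214 of the 261 CPM of the granulocyte-monocyte-like sum, and 4 of 10 markers were at 0; their part was not tested.

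The few counts of Flt3 and Csf1r in erythroid-like cells lay at the level of other genes of the granulocyte-monocyte-like class. In the 51 erythroid-like cells, Flt3 stood at 0.280% (0.103 to 0.610) and Csf1r at 0.442% (0.2204 to 0.790) of the granulocyte-monocyte-like level. Mpo was at 0.586% (0.486 to 0.701), Cd34 at 0.402% (0.269 to 0.577) and Emb at 0.434% (0.278 to 0.646) of it in the same cells, with a count of Mpo in 27 of the 51. Background and low expression cannot be told apart at this level, and no expression of Flt3 or Csf1r is read from these counts. Pdgfrb stood apart at 13.03% (9.54 to 17.4), and so did Prtn3, a granule protease, at 4.81% (3.68 to 6.18).

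Pdgfrb was carried by fewer cells, in both classes of BFU-E cells, and had no thinned count in CFU-E cells; at full depth it had 4 reads in 2 CFU-E cells. It was at 0, 0 and 540 CPM in granulocyte-monocyte-like cells and 0, 0 and 230 CPM in erythroid-like cells, with a count in 18 of 38 and 11 of 54. Over summed cells that was 69.2 CPM (61.1 to 78.1) and 12.8 CPM (9.94 to 16.2), a ratio of 5.42 (4.14 to 7.17), and in the 51 erythroid-like cells it was 9.02 CPM (6.60 to 12.03) in 10 of them. CFU-E cells had no thinned count in 89, so with 3 counts as the limit Pdgfrb was at least 107-fold lower than in BFU-E cells, at 36.1 CPM (32.3 to 40.2), and at least 37.9-fold lower than in erythroid-like BFU-E cells. Of 10 endothelial and stromal markers, 7 were at 0 in granulocyte-monocyte-like cells, Col1a1, Col3a1 and Des among them, and Pecam1, which blood progenitors also express, gave 131.6 CPM of their sum of 134 CPM. In CFU-E cells the sum was 5.06 CPM and in erythroid-like cells 36.3 CPM, in these with Pecam1 at 21.5, Col1a2 at 12.2 and Col3a1 at 2.04 CPM. Per cell the sum was at 0, 85 and 600 CPM in granulocyte-monocyte-like and 0, 5 and 190 CPM in erythroid-like cells, and its part in the Pdgfrb level was not tested.

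Pdgfra had no thinned count in either group, which allows a count in up to 3.37% of CFU-E and 3.26% of BFU-E cells at this depth (3 of the cells in each group). At full depth it had 21 reads in 2 CFU-E cells and 0 in BFU-E cells. No fold is given for it.

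Of the 5 genes, 4 passed the minimum of 5 CPM (mean of the compared groups), and these 4 were at least 2-fold lower in CFU-E than in BFU-E cells, where 34.2% of 9440 measured genes were. Csf1r and Pdgfrb passed only through their level in BFU-E cells, so the count describes the list and supports nothing further. Other scalings moved the share of all genes that were lower to 18.8% (TMM) and 17.7% (median of ratios), and the share that were higher to 15.3% and 16.7%, beside 6.45% with library size. Against erythroid-like BFU-E cells, 2 of 3 measured members (Kit and Pdgfrb) were at least 2-fold lower, where 31.4% of 9163 genes were. In the other direction 0 were higher, where 6.12% were. Pdgfrb passed there only through its erythroid-like level. Between the BFU-E classes, 3 of 4 measured members were at least 2-fold higher in granulocyte-monocyte-like cells, where 13.7% of 9934 genes were, and 0 of 4 were lower, where 8.92% were. Csf1r, at 2.04 CPM in erythroid-like cells, passed only through the granulocyte-monocyte-like class. For Flt3, 1 cell held 80% of the erythroid-like counts. These counts of members, too, describe the list and support nothing further.

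The receptors were not exclusive of each other on the BFU-E plate, where every cell carried at least 1 count of Kit. Of the 38 granulocyte-monocyte-like cells, 14 carried Kit, Flt3, Csf1r and Pdgfrb together, 15 carried Kit, Flt3 and Csf1r, 4 carried Kit, Flt3 and Pdgfrb, 4 carried Kit and Flt3, and 1 carried Kit and Csf1r. None of them carried Kit alone. Of the 54 erythroid-like cells, 31 carried Kit alone, 9 Kit and Pdgfrb, 8 Kit and Csf1r, 4 Kit and Flt3, and 2 Kit, Flt3 and Pdgfrb. No erythroid-like cell carried both Flt3 and Csf1r, but with 35 counts of Flt3 in 6 cells, 28 of them in 1, and 11 counts of Csf1r in 8, this cannot be read as exclusion. At full depth 18 of the 54 carried reads of both, in 11 of which at least 1 of the pair had a single read, and 10 carried Kit alone. Carriers of Flt3 (29 cells) and of Csf1r (27 cells) then had a median of 2 reads of it in the erythroid-like class, against 293.5 and 294.5 reads in granulocyte-monocyte-like carriers. Of the 38 granulocyte-monocyte-like cells, 34 carried both at full depth.

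Among CFU-E cells, 67 of 89 carried Kit alone, 19 carried none of the 5, 2 carried Kit and Flt3 (both with lymphoid markers) and 1 carried Csf1r alone. At full depth 78 of the 89 carried Kit alone, 4 carried none, 3 carried Kit and Flt3 and 1 carried Kit and Csf1r. The rest carried Kit with Pdgfra, Pdgfrb or both, and no CFU-E cell then carried Csf1r without Kit. When 10 or more thinned counts were asked for, 50 of 54 erythroid-like BFU-E cells carried Kit alone and 2 carried none. At the same threshold 35 of 38 granulocyte-monocyte-like cells carried Kit, 13 of them with Flt3 and Csf1r and 6 with Flt3, Csf1r and Pdgfrb, while 2 carried Flt3 and Csf1r and 1 carried Csf1r, without Kit. Over the whole BFU-E plate Flt3 and Csf1r were found together in 29 cells, which is 67.4% of the Flt3 carriers and 76.3% of the Csf1r carriers; all 29 were granulocyte-monocyte-like, which did not hold at full depth.

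**Figure D2:**
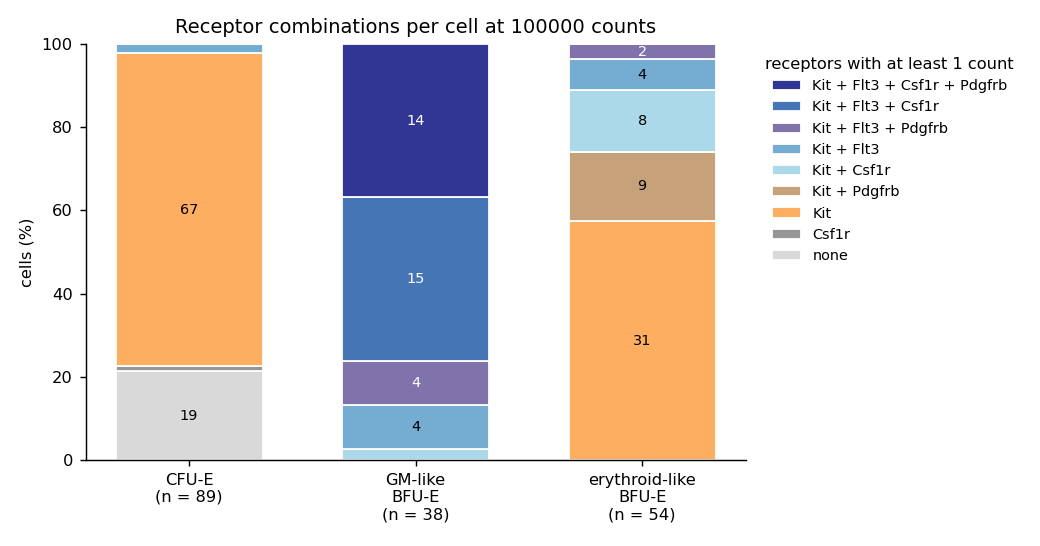
Share of cells (%) with each combination of receptors at 1 or more counts of 100000, in CFU-E cells and both classes of BFU-E cells; numbers in the bars are cells. Kit alone is the commonest state in CFU-E (67 of 89) and erythroid-like BFU-E cells (31 of 54) at this depth, while 29 of 38 granulocyte-monocyte-like cells carry Kit, Flt3 and Csf1r with or without Pdgfrb.

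Within the granulocyte-monocyte-like class Kit and Csf1r ran in opposite directions in amount. Over its 38 cells, which share a plate, a lane and a thinned depth, Kit and Csf1r had a Spearman correlation of −0.52, Kit and Pdgfrb of 0.45, Csf1r and Pdgfrb of −0.34, Flt3 and Csf1r of 0.13 and Kit and Flt3 of 0.08. The 8 cells without Csf1r had Kit at 330, 625 and 990 CPM (lowest, median and highest), and the 30 carriers of Csf1r at 10, 375 and 1170 CPM, so high Kit occurred with and without Csf1r. The 3 cells with Kit under 100 CPM had Csf1r at 1390, 310 and 780 CPM. Carriers of Pdgfrb had Kit at 40, 605 and 1170 CPM and the 20 other cells at 10, 305 and 1150 CPM.

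**Figure D3:**
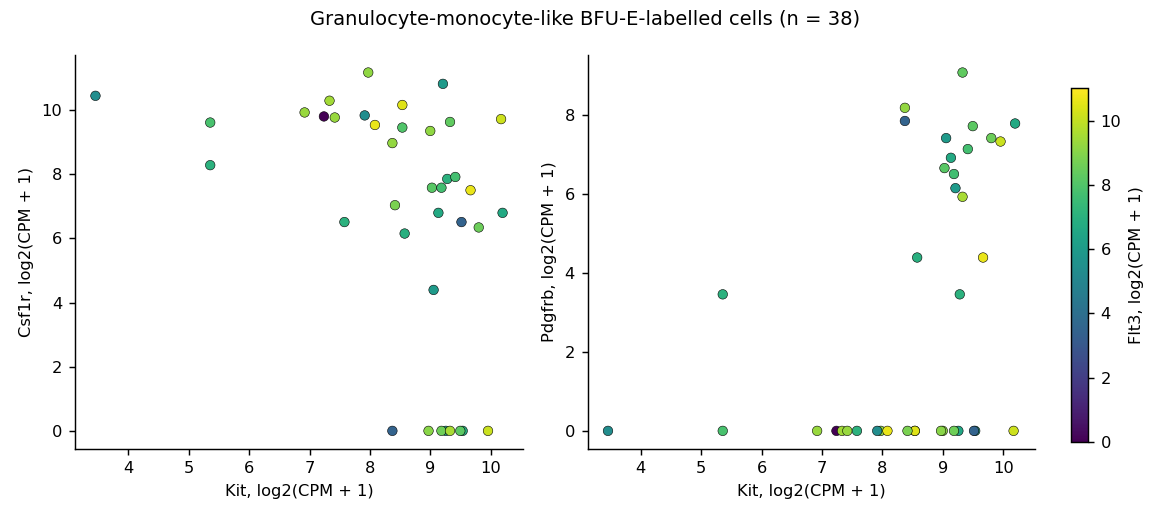
Csf1r (left) and Pdgfrb (right) against Kit in the 38 granulocyte-monocyte-like BFU-E cells, all as log2(CPM + 1), with colour for Flt3. Cells with the least Kit all carry Csf1r, cells without Csf1r lie at 330 CPM of Kit or above, and Flt3 colours are mixed along both axes.

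The genes whose pattern over these 38 cells was most like each receptor, by Spearman correlation among 8907 genes with a count in at least 20% of cells, differed between receptors. For Csf1r they were Ifnar2, a chain of the type I interferon receptor (0.84), Pld4 (0.80), Ctsz (0.79), Unc93b1 (0.79) and Cyth4 (0.76). For Kit they were Gm19590 (0.67), Mycn, a MYC-family factor (0.62), Senp6 (0.58), Cd27 (0.56) and Meis1 (0.56), and for Flt3 they included Il7r, the interleukin-7 receptor (0.56), Arih1 (0.56), Msh3 (0.56) and Dhx9 (0.55). Irf8, a transcription factor of monocyte and dendritic cell lineages, ran with Csf1r (0.60) and against Kit (−0.64), and Cd34, a marker of early progenitors, ran with Kit (0.47). Mpo ran against Flt3 (−0.57). The median correlation over all genes was 0.03 for Kit, −0.02 for Flt3 and −0.01 for Csf1r, and the largest of 8907 values over 38 cells are a ranking only.

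Over the 54 erythroid-like BFU-E cells the genes most like Kit were Tgif1 (0.54), Ucp2 (0.48), Rsrp1 (0.47), Pds5a (0.46) and Eef2k (0.46). Over the 89 CFU-E cells they were M1ap (0.50), Syncrip (0.45), Bcap29 (0.43), Lrrc58 (0.42) and Edem3 (0.42). Among the genes most opposed to Kit in CFU-E cells, listed after their values were seen, were the globin genes Hba-a1 (−0.58), Hbb-bt (−0.50) and Hbb-bs (−0.48) and the band 3 gene Slc4a1 (−0.49). Without the 3 cells with lymphoid markers Hba-a1 was at −0.60; the alpha-globin copies are nearly identical, so reads may be split between them. Kit ran against Cd24a, whose product is also a sort antigen (−0.45), and with Myb, a factor of immature progenitors (0.33). Hba-a1 was at 0, 230 and 6070 CPM and Cd24a at 850, 2280 and 7450 CPM in these cells. The correlation of Kit with the cells' full depth was 0.11.

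**Figure D4:**
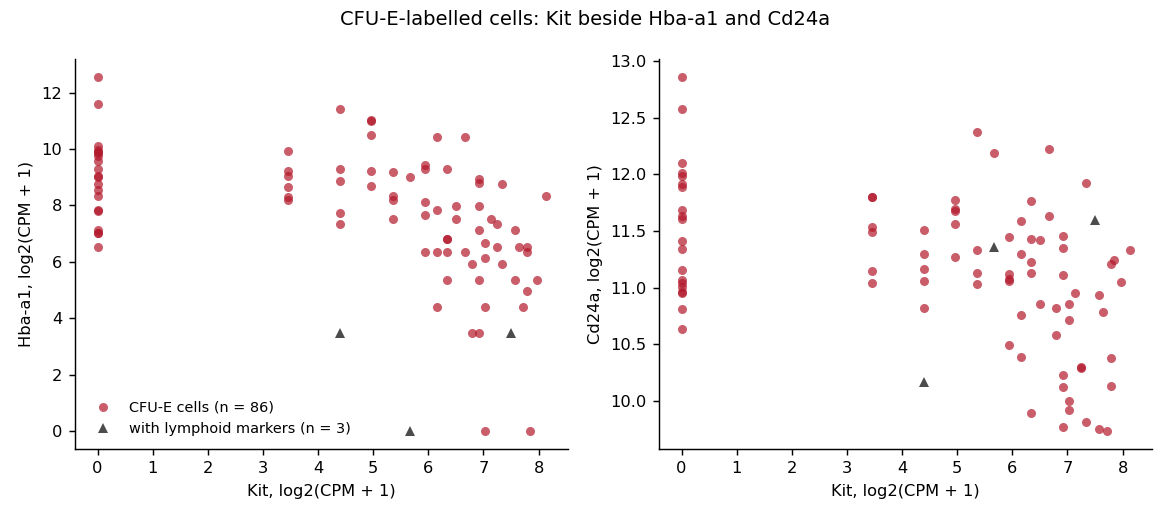
Hba-a1 (left) and Cd24a (right) against Kit in the CFU-E cells, as log2(CPM + 1); circles are 86 cells and triangles the 3 cells with lymphoid markers. Hba-a1 tends to be lower in cells with more Kit (Spearman −0.58), with wide spread.

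Set beside the other 53 receptor tyrosine kinases, Kit was the highest in CFU-E and in erythroid-like BFU-E cells. Per kilobase of exons it stood at 8.27 CPM per kb in CFU-E cells, ahead of Igf1r, the insulin-like growth factor receptor (2.42, 2.17 to 2.68), Lmtk2 (2.02, 1.71 to 2.38) and Ryk (1.98, 1.57 to 2.47), which overlapped each other in counting error; Flt3 came next at 1.09 from its 2 cells. In erythroid-like BFU-E cells Kit was at 77.8 CPM per kb, followed by Tek, the angiopoietin receptor (13.1), Igf1r (10.96) and Insr (3.54), with Pdgfrb at 2.33, Flt3 at 1.05 and Csf1r at 0.353. In granulocyte-monocyte-like cells the order was Csf1r (84.6, 80.8 to 88.5), Flt3 (67.9, 64.6 to 71.3), Kit (54.7, 52.2 to 57.2), Ptk7, a Wnt-pathway receptor without kinase activity (16.4), and Pdgfrb (12.6, 11.2 to 14.3). Neighbours among the first 3 did not overlap in counting error, but this order is of summed cells. In single cells the medians, before division by length, were 515 CPM for Kit, 265 CPM for Flt3 and 210 CPM for Csf1r. Of 53 other kinases 10 were measured between CFU-E and BFU-E. Of these, 0 were at least 2-fold higher and 8 lower in CFU-E cells, beside 6.45% and 34.2% of all genes. Their median log2 difference was −2.76, beside −0.57 over all genes. Tek was at 0.225 CPM in CFU-E and 42.8 CPM in BFU-E cells, Ptk7 at 1.011 and 43.9 CPM, and Igf1r at 40.6 and 140.8 CPM. Tek and Ptk7 passed the minimum of 5 CPM only through their level in BFU-E cells. The count of lower kinases and their median therefore describe the list and support nothing further.

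**Figure D5:**
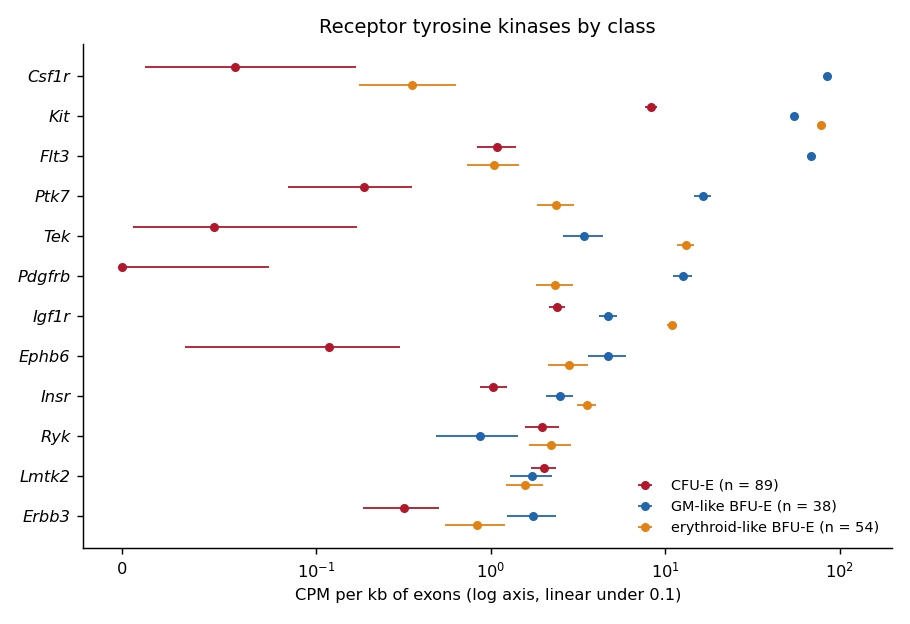
Receptor tyrosine kinases by level per kilobase of exons (CPM per kb, log axis that is linear under 0.1) in CFU-E cells, granulocyte-monocyte-like BFU-E cells and erythroid-like BFU-E cells; bars are exact Poisson 95% intervals of counting error. Csf1r, Flt3 and Kit stand above the other kinases in granulocyte-monocyte-like cells, and only Kit does in the other classes.

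The ligands were hardly present. Of 8 ligand genes none reached a mean of 5 CPM. Flt3l, the FLT3 ligand, was at 2.47 CPM in CFU-E and 3.48 CPM in BFU-E cells (CFU-E over BFU-E 0.711, 0.393 to 1.26), and Csf1, the macrophage colony-stimulating factor, at 1.011 and 0.870 CPM. Kitl, the stem cell factor, was at 0 CPM in CFU-E and 0.870 CPM in BFU-E cells, Pdgfd was at 0.112 and 5.43 CPM, Pdgfb at 0 and 2.07 CPM, Pdgfa at 0 and 0.870 CPM, and Il34 and Pdgfc were at 0 in both.

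Among signalling genes below the receptors, Fes and Tec, kinases of myeloid and lymphoid cells, stood out by their low level in CFU-E cells, and the adaptor Gab1 by its high one. Of 40 measured adaptors and effectors, 2 were at least 2-fold higher and 18 lower in CFU-E cells, beside 6.45% and 34.2% of all genes, with a median log2 difference of −0.83 beside −0.57 over all genes. Fes was at 0 CPM in CFU-E and 110.5 CPM in BFU-E cells, and Tec at 0.449 and 43.4 CPM. Gab1, a docking adaptor, was 4.64-fold higher (3.75 to 5.77), at 53.9 CPM in CFU-E and 11.6 CPM in BFU-E cells, Fer 2.38-fold (1.96 to 2.90) and Shc1 1.40-fold (1.29 to 1.51); against erythroid-like BFU-E cells Fer was 1.55-fold higher (1.27 to 1.90). Of 21 measured negative regulators, 1 was higher and 17 lower, with a median of −1.73; Dok2 was at 0.449 and 92.5 CPM, Sla at 2.81 and 90 CPM, and Ptpn6, the SHP-1 phosphatase that dampens KIT, was 13.3-fold lower (11.8 to 15.2), at 29.6 CPM in CFU-E and 394 CPM in BFU-E cells. Under TMM factors, 15.3% of all genes were higher and 18.8% lower. The adaptors then gave 5 higher and 12 lower and the negative regulators 1 higher and 14 lower. Fes, Tec, Dok2 and Sla passed the minimum of 5 CPM only through their level in BFU-E cells. The counts and medians of both lists therefore describe the lists and support nothing further.

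Between the BFU-E classes, 5 of 39 adaptors were at least 2-fold higher and 5 lower in granulocyte-monocyte-like cells, beside 13.7% and 8.92% of all genes, and a median log2 difference of 0.19 beside 0.00 over all genes. Plcg2, a phospholipase of lymphoid and myeloid cells, was 6.84-fold higher (5.80 to 8.11) and Fes 6.19-fold (5.28 to 7.28), and Stat5a, a transcription factor that erythropoietin and KIT signals activate, was 3.62-fold lower (3.16 to 4.16), at 65.8 CPM in granulocyte-monocyte-like and 238 CPM in erythroid-like cells. Of 22 negative regulators 8 were higher and 2 lower, with Sh2b2 12.7-fold (7.13 to 24.5) and Sh2b3, the LNK adaptor, 6.33-fold higher (4.79 to 8.47).

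Among transcription factors known to act at the receptor genes, Meis1, Irf8 and Gata2 were low and Gata1 and Gfi1b high in CFU-E cells. Of 19 measured, 2 were at least 2-fold higher and 11 lower in CFU-E than in BFU-E cells, beside 6.45% and 34.2% of all genes. Their median log2 difference was −2.92, beside −0.57 over all genes. With a minimum of 20 CPM, 13 were measured and the median was −0.29, beside −0.44 over all genes. But against erythroid-like BFU-E cells alone 0 of 14 were higher and 6 lower, beside 6.12% and 31.4% of all genes. The median there was −0.58, beside −0.53 over all genes. Gata2, a factor known to act at Kit, was at 0.225 CPM in CFU-E and 34.9 CPM in BFU-E cells. Meis1 was at 2.13 and 220 CPM and Irf8 at 0.562 and 60.9 CPM. Gata2, Meis1 and Irf8 passed the minimum of 5 CPM only through their level in BFU-E cells. The list counts and median therefore describe the list and support nothing further. Gata1 was 2.27-fold higher (2.15 to 2.404), Gfi1b 2.19-fold (2.04 to 2.36) and Ikzf1 1.75-fold (1.66 to 1.85) in CFU-E cells; against erythroid-like BFU-E cells Gata1 was 1.35-fold (1.28 to 1.43) and Gfi1b 1.42-fold higher (1.32 to 1.53). In granulocyte-monocyte-like over erythroid-like cells 6 of 20 were higher and 6 lower, beside 13.7% and 8.92% of all genes. In the same order, Irf8 was at 145.5 and 1.30 CPM, Hoxa9 at 61.8 and 7.04 CPM, and Gata1 at 5.53 and 327 CPM. Irf8 and Gata1 are themselves among the markers by which these classes were named, so their difference is not a separate result.

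Other sort and depletion antigens bear on how the cells were picked. Tfrc, which encodes CD71, was 5.37-fold higher (5.13 to 5.62), at 1331 CPM in CFU-E and 248 CPM in BFU-E cells, and Cd24a 21.1-fold higher (19.9 to 22.5), at 2507 and 119 CPM, opposite in direction to Kit. Itga2b, the CD41 gene, was at 1.69 and 145 CPM in CFU-E and BFU-E cells, and Fcgr3, a CD16/32 gene, at 0 and 18.6 CPM. Ptprc, the CD45 gene, was at 0.787 and 308 CPM in the same order. The depletion antibody was to CD45R, a form of CD45, and counts per gene do not separate the forms. In granulocyte-monocyte-like cells, which carried Flt3 and Csf1r, Fcgr3 was at 38.7 CPM and Itgam, the CD11b gene, at 15.5 CPM, against 4.44 and 0 CPM in erythroid-like cells; Cd3e and Ly6g were at 0 in all classes. Between CFU-E and BFU-E cells, differences in Kit, Tfrc and Cd24a cannot be told apart from the sort.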

How the data were processed

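The authors deposited raw read counts, 1 whole number for each gene and cell, made with STAR 2.4 and featureCounts (version not given) on GRCm38, per the submitters' processing notes. Libraries were made by SmartSeq2 with Nextera XT, per the labels' protocols. The sources used here give neither the annotation release nor how multiply mapped reads were counted. Of 192 columns of per-sample values, 191 matched a cell by name, leaving 1 aside.

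Each cell past 100000 counts and 2000 genes was thinned without replacement to 100000 counts (seed 1), and cells were summed per class. CPM carry exact Poisson, ratios exact conditional binomial and shares other than 0 Clopper-Pearson 95% intervals, and a share of 0 has 3 cells as its upper limit; a level of 0 was set to 3 counts summed over the group for folds (0.337 CPM in CFU-E and 0.326 CPM in BFU-E cells), and log2 differences used log2(CPM + 1). A gene was measured at a mean of at least 5 CPM over the compared groups, and a difference was counted from 2-fold. For BFU-E cells, Ward clustering used 10 principal components of 1000 variable genes outside the pathway lists (scikit-learn 1.9.0). Wells received single cells, and doublets were not called. TMM factors came from edgeR 4.0.16 and median-of-ratios factors from DESeq2 1.42.0; neither was used for a test. Positions and exonic lengths were from GENCODE M21 for 49326 of 49466 genes.

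Members, lists and markers were chosen with earlier results of these data known. Named genes were the members, all ligands, the 3 largest differences each way in each other list among genes with at least 20 CPM, the highest kinases per kb, the antigens, the most abundant markers of each marker list, and the 5 genes most like each receptor with at least 20 carriers. Some genes that the rule names are not reported here. Alternatives covered the cell filter, thinning, scaling, pseudocount, label numbers, count thresholds and clustering. Leaving out the 3 CFU-E cells with lymphoid markers, and using erythroid-like BFU-E cells alone for each receptor, were chosen after seeing the data.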

Additional observations from a re-analysis of the deposited data

How the results depend on the processing

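Of 265 values recomputed under an alternative, 201 stayed within counting error (or within 1.5 times, for counts of cells or genes), 63 moved and 1 changed direction. All differences here are on the log2(CPM + 1) scale, CFU-E minus BFU-E. Kit (−3.03) was −2.46 under TMM and −2.401 under median-of-ratios scaling, −3.22 in odd and −2.81 in even label numbers, and −3.22 against erythroid-like BFU-E cells only; that last comparison was −2.63 under TMM and −2.56 under median-of-ratios scaling. Flt3 (−4.52) was −5.14 without thinning, −3.99 under TMM and −3.93 under median-of-ratios scaling, −3.78 in odd and −7.34 in even label numbers, and −7.48 without the 3 CFU-E cells with lymphoid markers, all 3 of which have odd numbers. Against erythroid-like BFU-E cells only, Flt3 turned to 0.049. Csf1r (−7.25) was −7.66 in even label numbers, −7.92 with a pseudocount of 0.5 CPM and −1.18 against erythroid-like cells only. Pdgfrb (−5.21) was −4.48 in odd and −5.74 in even label numbers, −6.19 with a pseudocount of 0.5 CPM and −3.78 against erythroid-like cells only. Pdgfra stayed within counting error of 0.

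Between the BFU-E classes (granulocyte-monocyte-like minus erythroid-like), Flt3 (5.81) was 7.51 with 500 and 7.44 with 2000 variable genes and 7.49 with k-means, and Pdgfrb (2.35) was 2.88 with 2000 variable genes and 2.94 with k-means; each of these settings moved at least the 1 erythroid-like cell with most Flt3. Kit and Csf1r did not move under these settings.

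Carrier shares followed the threshold. At 10 or more thinned counts Kit was in 33.7% of CFU-E and 94.6% of BFU-E cells, Flt3 in 33.7%, Csf1r in 27.2% and Pdgfrb in 14.1% of BFU-E cells, and Csf1r in 0% of CFU-E cells; at 3 or more Kit was in 64.04% of CFU-E cells. With full counts Kit was in 95.5% of CFU-E cells and Flt3, Csf1r and Pdgfrb in 72.8%, 66.3% and 43.5% of BFU-E cells. Without the cells with lymphoid markers, Flt3 had a thinned count in 0% of CFU-E cells and, with full counts, 2 reads in 1 of 86. Of pairs in BFU-E cells, with full counts Kit and Flt3 were together in 67 (43 as reported), Kit and Csf1r in 61 (38), Flt3 and Csf1r in 52 (29), Flt3 and Pdgfrb in 33 (20) and Csf1r and Pdgfrb in 25 (14). At 10 or more counts Kit and Csf1r were together in 22, Kit and Pdgfrb in 13 (29), Flt3 and Pdgfrb in 10 and Csf1r and Pdgfrb in 6, the last in 9 at 3 or more.

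Of list counts, adaptors higher in CFU-E (2) were 5 under either scaling and 1 in odd label numbers or against erythroid-like cells; negative regulators higher (1) were 0 in odd label numbers, with a minimum of 20 CPM or against erythroid-like cells, and lower (17) were 9 with that minimum; transcription factors higher (2) were 4 under either scaling and 0 against erythroid-like cells, and lower (11) were 6 with the minimum of 20 CPM or against erythroid-like cells; other kinases higher (0) were 1 with cells of at least 500000 counts and 4000 genes or in odd label numbers, and lower (8) were 4 with the minimum. The cause was not tested, except that a higher minimum measures fewer genes.

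No paired analysis was possible because no result comes from a test and the shared label numbers only name cells. The wider filter of 10000 counts was not run for the erythroid-like class, since those cells were not clustered. At 100000 counts per cell a gene under 10 CPM is missed in most cells, so absence from a cell is not shown, and differences between animals, plates and lanes have no estimate: cell type, plate and lane cannot be told apart.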
